A study of Mus musculus with 4 samples.

Results

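The genes described here make, fold, glycosylate, sort and discard proteins in the endoplasmic reticulum (ER) of T cells. They are 49 genes on a list of ER folding and secretory machinery, out of 18193 genes that a probe set of the array names alone. The list goes by what the genes do, but it was chosen with earlier results of these data known. All 49 had such a probe set, and all 49 were bright enough to be tested. For each gene the probe set with the highest mean over the 4 arrays was used.

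The cells were naive T cells from mouse spleen, wild type (WT) or knockout (KO), cultured for 3 days in conditions that induce regulatory T cells (Treg cells). RNA was measured on 2 WT and 2 KO Affymetrix arrays, and the label of each array gives a mouse source with a number of its own. It is not stated whether a source is 1 animal or a pool, so the p-values reflect only how far these samples differ, and some of that difference may be technical. The labels name neither the gene removed nor the strain, age or Cre of the mice, so the knockout itself could not be checked. Signals of the T cell genes Cd3d, Cd3e, Cd3g, Cd2, Thy1 and Lat were between 1722 and 26241 on the 4 arrays, and Cd4 was between 517 and 786. Of the other T cell markers listed, Cd28 was between 3539 and 4457 and Trat1 between 282 and 580. Lck had no probe set that names it alone. Foxp3, the defining factor of Treg cells, had signals of 2177 and 2033 in WT and of 947 and 1101 in KO.

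Proteins bound for the cell surface or for secretion enter the ER through the Sec61 channel, lose their signal peptide, receive N-linked sugars and fold with the help of chaperones and disulfide isomerases. Proteins that fail to fold are drawn back to the cytosol and degraded, which is called ER-associated degradation. When unfolded proteins build up, the sensors IRE1 (gene Ern1), ATF6 and PERK (gene Eif2ak3) start the unfolded protein response, in which XBP1 and ATF6 switch on many of these genes. Activated lymphocytes and, above all, antibody-secreting plasma cells use this machinery heavily.

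In KO cells 17 of the 49 genes rose, which is 34.7% beside 10.5% of all genes tested. One gene, Herpud1, fell, beside 9.87% of all genes tested, and 31 genes were not called. A call is an adjusted p under 0.05 from limma, fitted on 27022 probe sets and adjusted over them by the Benjamini-Hochberg method. The log2 fold change was positive for 43 of the 49 genes, beside 47.5% of all genes, and its median was 0.31, beside -0.03 for all genes. WT and KO signals did not overlap for 43 of the 49 genes, or 87.8%, beside 62.7% of all genes. The overlapping genes were Calr, Fkbp2, Ppp1r15a, Ssr2, Sec11c and Sec24d. In bulk RNA like this, a different number of cells of a type and a different amount of RNA per cell cannot be told apart. Without the intensity trend in the fit's prior, only Ssr1 was called among the 49, beside 2.69% of all probe sets called higher and 1.69% lower. In that fit the 49 genes thus did not exceed the share over all probe sets. The adjusted p of the 18 called genes was then between 0.0398 and 0.218.

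**Figure D1:**
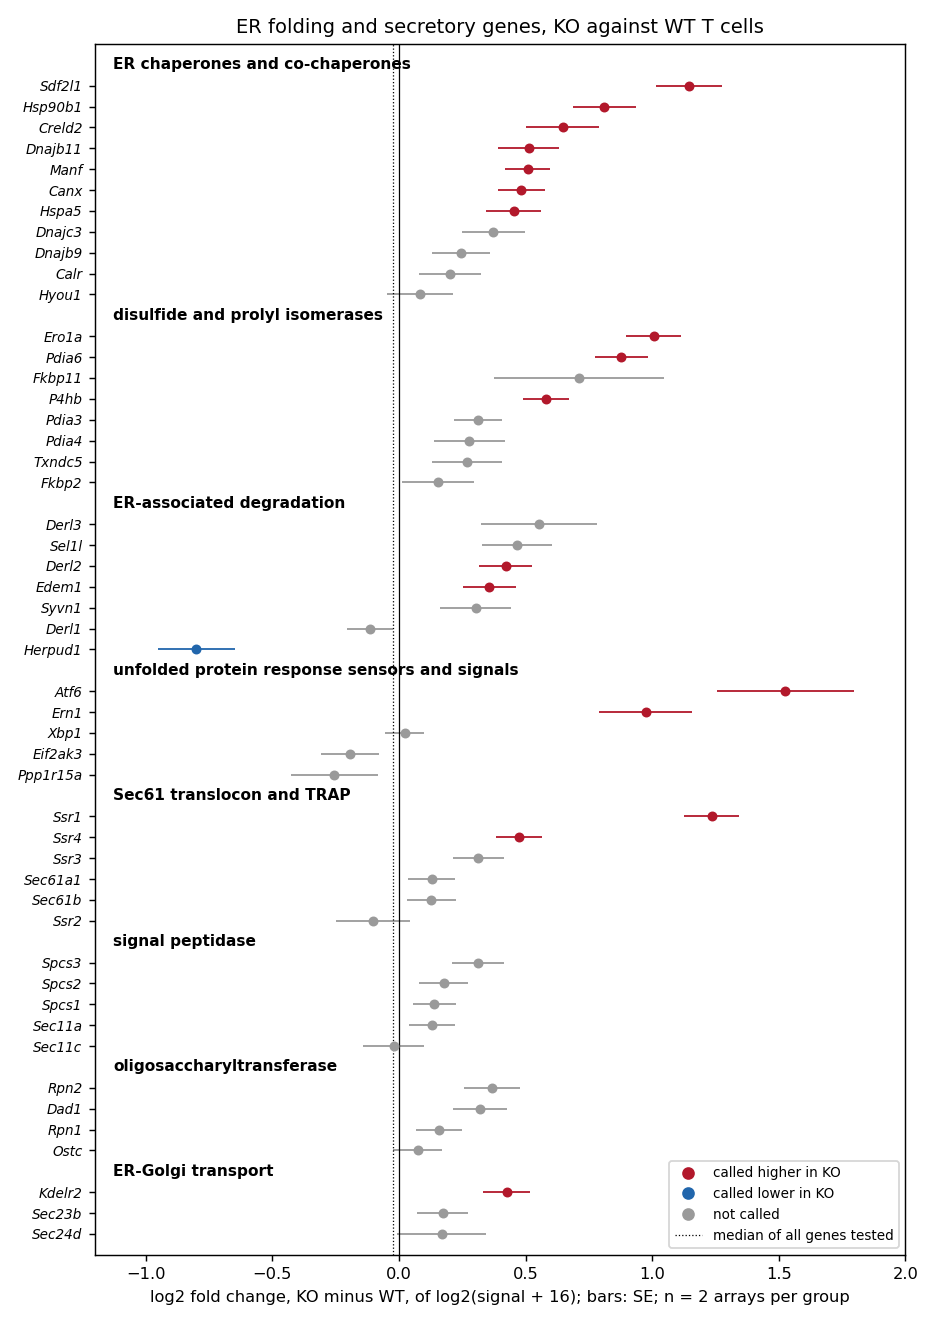
Log2 fold change of KO over WT, with its standard error, for each of the 49 genes, grouped by role, from 2 arrays per group. Points called higher are red, the 1 called lower is blue and the rest are grey. Most points lie right of the dotted line at the median of all genes tested, -0.03, and the chaperone group holds 7 of the 17 red points.

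The rises were of moderate size. Among the genes that rose, 8 were over 1.5-fold higher and 4 were over 2-fold higher in KO, namely Atf6, Ssr1, Sdf2l1 and Ero1a. The median over the 49 genes was 0.41 for KO1 over WT1, 0.42 for KO1 over WT2, 0.25 for KO2 over WT2 and 0.28 for KO2 over WT1. The KO1 array thus stood further from both WT arrays than KO2 did. KO1 was above KO2 for 37 of the 49 genes and for 14 of the 17 that rose, beside 51.2% of all genes tested. WT1 was above WT2 for 24 of the 49.

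Of the 11 ER chaperones and co-chaperones, 7 rose and 0 fell, with a median log2 fold change of 0.48. Sdf2l1, a partner of the DnaJ proteins that feed substrates to BiP, had the largest change of the group. Its signal was 1680 and 1722 on the WT arrays and 4216 and 3393 on the KO arrays. Both KO arrays lay far above both WT arrays, with a log2 fold change of 1.15 ± 0.13 (SE, n = 2 per group; adjusted p = 0.000708). Hspa5 encodes BiP, the main Hsp70 chaperone of the ER. Its signal was 12586 and 14191 in WT and 19889 and 16844 in KO, without overlap, and it rose by 0.45 ± 0.11 (adjusted p = 0.0236). Hsp90b1 encodes GRP94, the Hsp90 chaperone of the ER, which folds integrins and Toll-like receptors. Its signal was 6195 and 7077 in WT and 12967 and 10434 in KO. It rose by 0.81 ± 0.12 (adjusted p = 0.00321), again without overlap.

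The lectin chaperone calnexin (Canx), which holds newly glycosylated proteins, had signals of 8427 and 8895 in WT and 12643 and 11592 in KO. It rose by 0.48 ± 0.09 (adjusted p = 0.00901). Manf, a secreted protein of the stressed ER, had signals of 5293 and 5152 in WT and 7414 and 7446 in KO. The KO arrays were almost equal here, and the log2 fold change was 0.51 ± 0.09 (adjusted p = 0.00671). Creld2, an ER protein with isomerase activity, had signals of 1296 and 1280 in WT and 2304 and 1778 in KO. It rose by 0.65 ± 0.15 (adjusted p = 0.019), with a wide gap between the KO arrays. Dnajb11, a DnaJ co-chaperone of BiP, had signals of 1340 and 1232 in WT and 1789 and 1890 in KO, and rose by 0.51 ± 0.12 (adjusted p = 0.0224).

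The 4 other chaperone genes were not called. Calr encodes calreticulin, the soluble relative of calnexin, and its brightest probe set had 13151 and 13998 in WT and 17745 and 13731 in KO. KO2 lay between the WT arrays, and the log2 fold change was 0.20 ± 0.12 (adjusted p = 0.307). The values were 0.37 for Dnajc3 and 0.25 for Dnajb9, both DnaJ proteins of the ER lumen, and 0.08 for Hyou1, a nucleotide exchange factor of BiP. The Hyou1 signals were 954 and 990 in WT and 1045 and 1016 in KO on a probe set marked as cross-hybridising. Its second tested probe set had 227 and 297 in WT and 87.6 and 212 in KO and gave -0.84 ± 0.36, not called (adjusted p = 0.155). Several calls of the group depended on 1 array. Without WT1, Hspa5 (adjusted p = 0.157), Canx (0.0749), Dnajb11 (0.0548) and Creld2 (0.0509) were not called, and Hspa5 was not called without the filter on dim probe sets (0.066). Without WT2, Dnajb11 (0.131), Manf (0.0557) and Creld2 (0.0585) were not called, nor were Creld2 without KO1 (0.0718) and Dnajb11 without KO2 (0.0671).

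**Figure D2:**
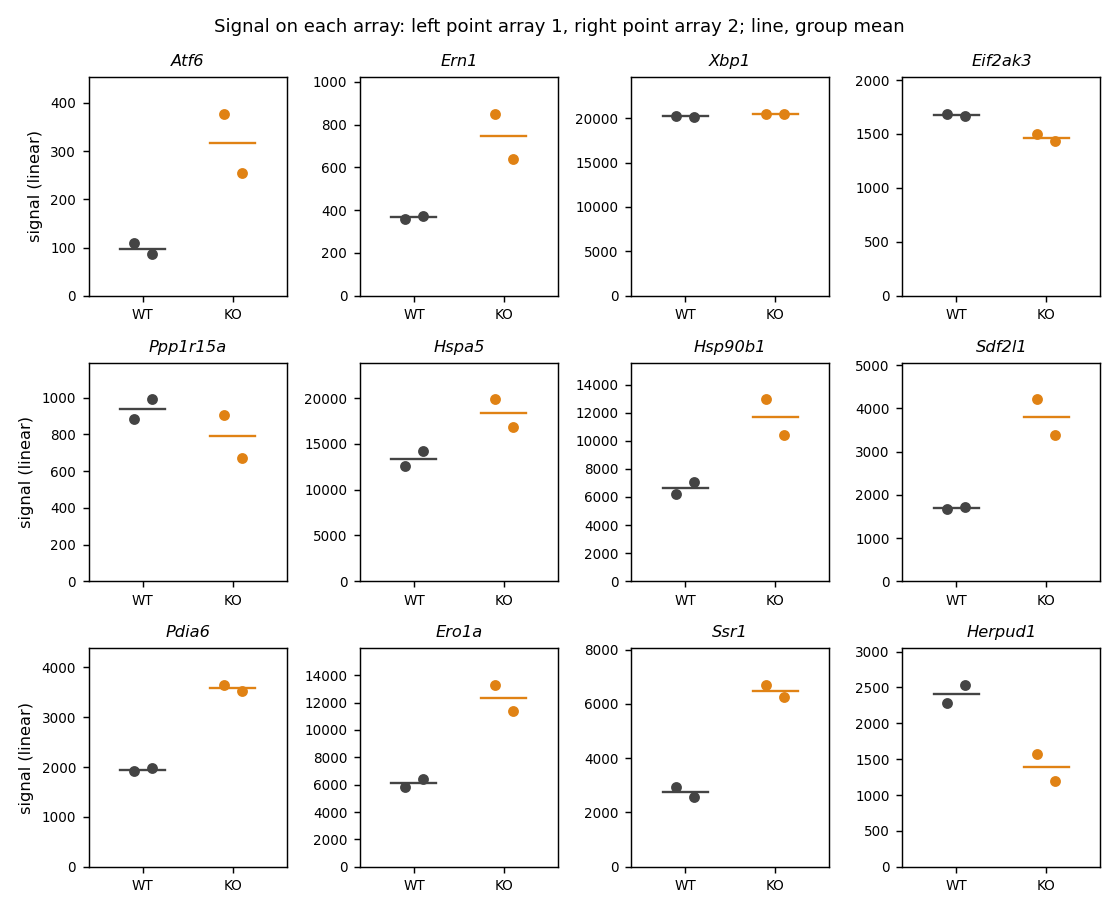
Linear signal of 12 genes on each array, WT in dark grey and KO in orange, with array 1 on the left, array 2 on the right and a line at the group mean. Each axis starts at 0. The 5 genes in the order Atf6 to Ppp1r15a belong to the unfolded protein response. Xbp1 sits between 20182 and 20514 on all 4 arrays, and Herpud1 is the only gene shown that was called lower.

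Of the 8 disulfide and prolyl isomerases, 3 rose and 0 fell, with a median of 0.45. Ero1a is the oxidase that recharges protein disulfide isomerases. Its signal was 5834 and 6427 in WT and 13306 and 11389 in KO, without overlap. The log2 fold change was 1.01 ± 0.11 (adjusted p = 0.000548), and its other 2 probe sets gave 1.65 and 1.67, both called. Pdia6, a disulfide isomerase that also binds IRE1, had 1913 and 1985 in WT and 3655 and 3533 in KO. It rose by 0.88 ± 0.10 (adjusted p = 0.000946), with each pair of arrays close together, but a mean over its 2 probe sets gave 0.25, not called. P4hb encodes protein disulfide isomerase itself, with 7773 and 8273 in WT and 12419 and 11581 in KO. It rose by 0.58 ± 0.09 (adjusted p = 0.0036).

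The other isomerases were not called. Pdia3 encodes ERp57, the isomerase that works with calnexin and calreticulin, and its signals were 7270 and 6739 in WT and 9062 and 8334 in KO. The log2 fold change was 0.31 (adjusted p = 0.0588), and a dim second probe set, at 59.2 and 61.6 in WT and 37.3 and 21.8 in KO, gave -0.77, not called. Pdia4 gave 0.28, Txndc5 gave 0.27 and the prolyl isomerase Fkbp2 gave 0.16. Fkbp11, a prolyl isomerase known for its high level in plasma cells, was the dimmest of the 49 genes. Its signal was 66.0 and 45.9 in WT and 110 and 92.3 in KO, and its log2 fold change of 0.71 ± 0.33 was not called (adjusted p = 0.189). That probe set is marked as cross-hybridising, and the other tested one gave -0.64 ± 0.54, not called.

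In ER-associated degradation 2 of 7 genes rose and 1 fell, with a median of 0.36. Herpud1 encodes HERP, a membrane protein that holds the HRD1 ubiquitin ligase complex together. It was the only one of the 49 genes that fell. Its signal was 2281 and 2539 in WT and 1579 and 1198 in KO, so both KO arrays lay below both WT arrays. The log2 fold change was -0.80 ± 0.15 (adjusted p = 0.00891), and WT was 1.74-fold above KO. The second Herpud1 probe set had 750 and 840 in WT and 501 and 507 in KO, and it was also called lower (-0.64 ± 0.15, adjusted p = 0.0222).

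Edem1, a lectin that hands misfolded glycoproteins to degradation, had 3088 and 3043 in WT and 4119 and 3747 in KO. It rose by 0.36 ± 0.10 (adjusted p = 0.0493), close to the threshold, while its second probe set rose by 1.01 ± 0.11 (adjusted p = 0.000747). Derl2, one of the derlins that form the exit path through the membrane, had 2253 and 2151 in WT and 2925 and 2979 in KO and rose by 0.42 ± 0.11 (adjusted p = 0.0285). Its dimmer probe set gave -0.25 and was not called. Neither call held when 1 array was left out: for Edem1 without WT1, WT2 or KO1 (adjusted p = 0.17, 0.213 and 0.138), and for Derl2 without any one of the 4 (0.0532 to 0.163). Edem1 was also not called with a pseudocount of 1 (0.0527), after quantile normalization (0.0513) or without the filter (0.0797).

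Sel1l and Syvn1, which encode the adaptor and the ligase of the HRD1 complex, had log2 fold changes of 0.47 (adjusted p = 0.0522) and 0.30 and were not called. The derlin gene Derl3, best known from secretory cells, had 139 and 170 in WT and 237 and 230 in KO and a log2 fold change of 0.55 ± 0.23 (adjusted p = 0.139). Derl1, the remaining derlin gene, gave -0.11.

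Among the 5 genes of the unfolded protein response itself, 2 rose and 0 fell, with a median of 0.02. Atf6, whose product is cut in the Golgi to release a transcription factor, had the largest rise of all 49 genes. Its signal was low, at 109 and 86.7 in WT and 378 and 254 in KO, without overlap. It rose by 1.53 ± 0.27 (adjusted p = 0.00661), and a second probe set rose by 0.99 ± 0.25 (adjusted p = 0.0276). Ern1, which encodes the kinase and nuclease IRE1, had 360 and 375 in WT and 851 and 638 in KO. It rose by 0.97 ± 0.18 (adjusted p = 0.00874), while a dim second probe set gave -0.36 and was not called, and a mean over all 5 of its probe sets gave 0.32, not called.

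Xbp1, the transcription factor gene whose RNA is spliced by IRE1, had signals of 20209 and 20182 in WT and 20494 and 20514 in KO. The log2 fold change was 0.02 ± 0.08 (adjusted p = 0.885), and its other 3 probe sets gave 0.15 to 0.31, none of them called. The probe set used for Xbp1 is marked as cross-hybridising, and the brightest one not so marked gave 0.20. The spliced form was not measured on its own here. Eif2ak3, the gene of the sensor kinase PERK, had 1689 and 1669 in WT and 1495 and 1437 in KO, a log2 fold change of -0.19 ± 0.12 (adjusted p = 0.296). Ppp1r15a encodes GADD34, which reverses the translation block set by PERK. Its signals were 886 and 993 in WT and 909 and 674 in KO, which overlapped, with a log2 fold change of -0.26 ± 0.17 (adjusted p = 0.356).

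At the point of entry, 2 of the 6 genes of the Sec61 channel and its TRAP partner complex rose. Ssr1 encodes the alpha subunit of TRAP, which helps some signal sequences through the channel. Its signal was 2923 and 2576 in WT and 6706 and 6263 in KO, and it rose by 1.23 ± 0.11 (adjusted p = 0.000206). A second Ssr1 probe set rose by 0.67 ± 0.12 (adjusted p = 0.00587), and the remaining 2, which were dim, were not called. Ssr4, the delta subunit, had 7095 and 6905 in WT and 10103 and 9361 in KO and rose by 0.47 ± 0.09 (adjusted p = 0.00953) on its brightest probe set, which is marked as cross-hybridising. Its dimmer probe sets gave -0.32 and -0.40, not called, so the probe sets of Ssr4 disagree. Without WT1 (adjusted p = 0.0514) or WT2 (0.0751) Ssr4 was not called. The other TRAP subunits gave 0.31 for Ssr3 (adjusted p = 0.0656) and -0.10 for Ssr2. The channel subunits Sec61a1 and Sec61b both gave 0.13. Sec61a1 had 7455 and 7167 in WT and 7697 and 8312 in KO, and its other 5 probe sets gave -0.74 to 0.41, none of them called.

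None of the 5 signal peptidase genes and none of the 4 oligosaccharyltransferase genes was called in limma. Over all genes tested 10.5% were called higher and 9.87% lower, so 0 calls in lists this short say little. At an unadjusted p under 0.05 there were 1 and 2, all higher. The share of all genes at that threshold is not given here. The signal peptidase genes Spcs1, Spcs2, Spcs3, Sec11a and Sec11c had log2 fold changes between -0.02 and 0.31. A dim second probe set of Sec11c was called lower, with 222 and 180 in WT and 86.0 and 60.3 in KO (-1.29 ± 0.29, adjusted p = 0.0181). The oligosaccharyltransferase genes, whose products attach the N-linked sugar, were at 0.07 for Ostc, 0.16 for Rpn1, 0.32 for Dad1 and 0.37 for Rpn2. Of 3 genes of ER-Golgi transport, Kdelr2 rose; it encodes a receptor that returns escaped chaperones to the ER. Its signal was 4486 and 4493 in WT and 6036 and 6026 in KO, almost equal within each genotype. It rose by 0.42 ± 0.09 (adjusted p = 0.0162), a call lost without WT1 (0.0932) or WT2 (0.0983). The COPII coat genes Sec23b and Sec24d were both at 0.17.

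The 49 genes had 116 probe sets that name them alone, of which 106 were tested, and 32 genes had over 1. Beside the brightest probe sets there were 57 further ones, of which 13 were called higher and 2 lower. Over all probe sets tested, 7.89% were called higher and 9.17% lower. Probe sets of the same gene read the same RNA and are not independent. Of the 12 genes that rose and had over 1 tested probe set, 7 rose on a further one as well. The second probe set of Hsp90b1 gave 1.13, the other 2 of Canx gave 0.82 and 0.66, and of the other 2 of Hspa5 1 rose, at 0.67, while 1 gave 0.02. No gene had probe sets called in opposite directions. Calr, Dnajc3 and Ssr3 were not called on their brightest probe set but rose on a dimmer one. For Calr both other probe sets were called, at 0.59 and 0.63 (adjusted p = 0.00322 and 0.00237), for Dnajc3 1 of 4 others at 0.88 (0.0408), and for Ssr3 the other 1 at 0.37 (0.0294).

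**Figure D3:**
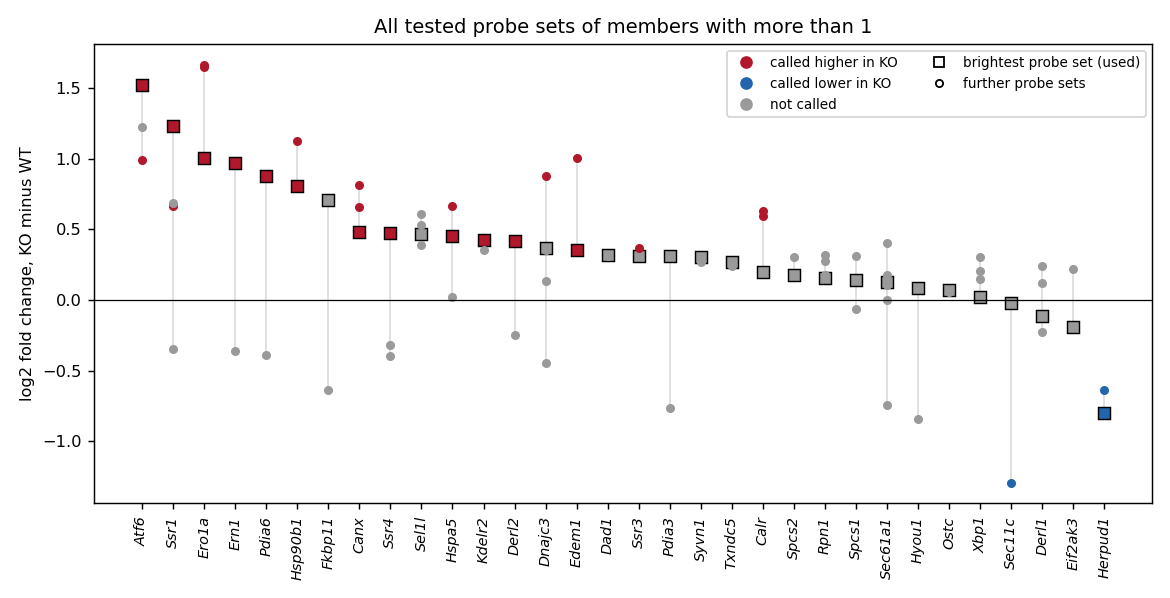
Log2 fold change of every tested probe set for the 32 genes with more than 1. Squares are the brightest probe set of each gene, circles the further ones, and colours give the call. Red circles sit under or over red squares for Ero1a, Atf6 and Edem1, while Ssr4 and Derl2 have grey circles below 0.

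Many genes of this machinery are known to carry a short control element in their promoters that XBP1 and ATF6 read together with the factor NF-Y. Promoter windows from 250 bases before to 50 bases after the annotated start, from RefSeq for GRCm38.p6, were at hand for 39 of the 49 genes. The ER stress element, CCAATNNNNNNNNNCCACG, was searched on both strands. It was present in 9 of the 39 genes, or 23.1%, beside 37 of 27025 genes with a window, or 0.137%. The second ER stress element, ATTGGNCCACG, was present in Dnajb11 and Herpud1, beside 12 of all genes (0.0444%). The unfolded protein response element, TGACGTGG, was present in Sec24d and Txndc5, beside 193 of all genes (0.714%). Both ER stress elements end in the same 5 bases, and the unfolded protein response element holds those bases on its other strand, so these searches are not independent. Genes of this machinery were already known to carry such an element, so these shares describe the list and test nothing. A match describes letters in a window and shows no binding.

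The 9 genes with the ER stress element are shown with the 5 fixed bases at each end in capitals, each read so that it starts with its CCAAT end. The first 5 of the genes rose in KO, and the last 4 were not called.
Hspa5: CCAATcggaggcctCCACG
Hsp90b1, first match: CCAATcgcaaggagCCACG
Hsp90b1, second match: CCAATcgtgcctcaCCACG
Pdia6: CCAATgaaaggcggCCACG
Canx: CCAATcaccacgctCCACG
Creld2: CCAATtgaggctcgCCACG
Calr: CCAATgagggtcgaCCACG
Derl3: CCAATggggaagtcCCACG
Dnajc3: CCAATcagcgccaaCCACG
Syvn1: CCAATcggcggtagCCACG
The matches began between 44 and 212 bases before the start. Those of Creld2, Calr and Derl3 and the second of Hsp90b1 lay on the strand opposite to the gene. The second element reads ATTGGcCCACG in Dnajb11, 8 bases after the start, and ATTGGgCCACG in Herpud1, 52 bases before it.

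**Figure D4:**
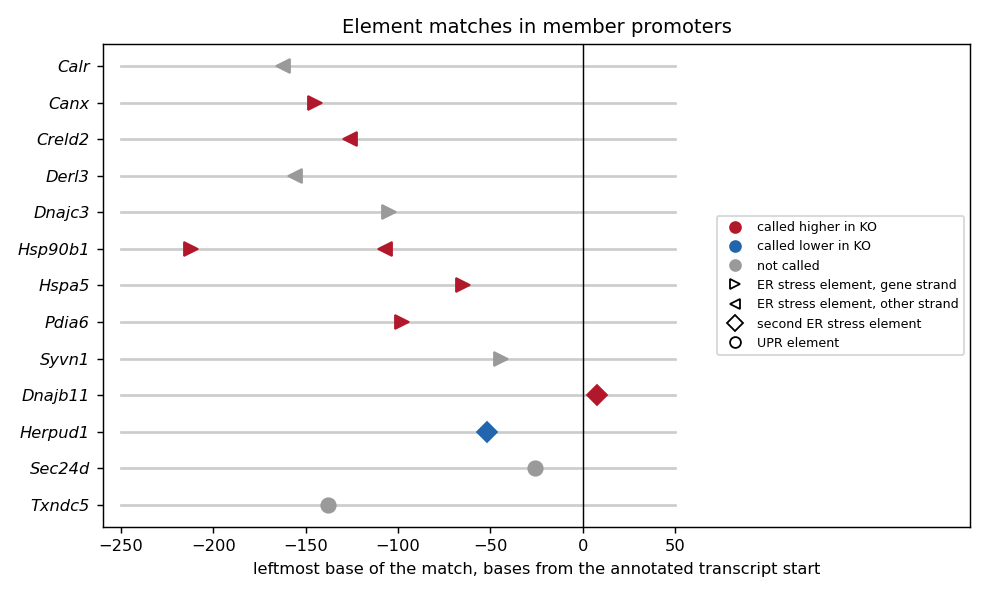
Position of each element match in the promoter windows of the 13 genes that hold one, as the leftmost base of the match relative to the annotated transcript start. Triangles point along the strand of the match, diamonds are the second ER stress element and circles the unfolded protein response element, coloured by the call in KO. All ER stress element matches lie between 44 and 212 bases before the start.

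Of the 14 genes that rose and have a window, 5 hold the ER stress element, and of the 24 uncalled ones 4 do. The median log2 fold change was 0.48 for the 9 genes with it and 0.29 for the 30 without it. The windows of Hsp90b1, which holds 2 matches and rose, of Hspa5, which rose, and of Herpud1, which fell, are printed whole along the gene's strand, with the matches in capitals. They lie at chr10:86705395-86705694 (minus strand), chr2:34771840-34772139 (plus strand) and chr8:94386179-94386478 (plus strand).
Hsp90b1: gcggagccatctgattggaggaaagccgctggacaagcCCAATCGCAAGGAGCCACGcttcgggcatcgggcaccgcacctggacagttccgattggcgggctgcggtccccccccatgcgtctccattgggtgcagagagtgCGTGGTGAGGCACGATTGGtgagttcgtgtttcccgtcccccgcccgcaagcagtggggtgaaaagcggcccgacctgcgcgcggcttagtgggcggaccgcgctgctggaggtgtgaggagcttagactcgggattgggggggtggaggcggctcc
Hspa5: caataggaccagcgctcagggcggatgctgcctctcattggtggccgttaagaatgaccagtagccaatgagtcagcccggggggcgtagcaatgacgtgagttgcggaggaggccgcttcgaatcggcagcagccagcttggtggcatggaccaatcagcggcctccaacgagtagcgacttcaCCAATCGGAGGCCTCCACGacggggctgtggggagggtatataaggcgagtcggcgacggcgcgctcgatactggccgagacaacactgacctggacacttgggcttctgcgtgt
Herpud1: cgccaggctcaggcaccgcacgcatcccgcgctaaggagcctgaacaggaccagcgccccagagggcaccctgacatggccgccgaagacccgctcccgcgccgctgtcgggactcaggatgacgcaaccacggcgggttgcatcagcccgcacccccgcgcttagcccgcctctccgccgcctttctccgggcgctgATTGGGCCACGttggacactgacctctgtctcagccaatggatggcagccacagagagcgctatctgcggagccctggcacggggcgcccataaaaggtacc
The Hsp90b1 matches begin 212 and 107 bases before the start, the Hspa5 match 65 bases before it. By exact match, the Herpud1 window holds the second element and not the first, and so does that of Dnajb11, which rose. Near matches to either element were not searched.

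The wider secretory pathway was described with 7 further lists and a list of chaperones outside the ER for comparison, none sharing a gene with the 49. Of 27 other ER chaperones and folding enzymes tested, 6 rose (22.2%) and 1 fell (3.70%), with a median of 0.12. Over all genes tested 10.5% rose and 9.87% fell. Sdf4, a calcium-binding protein of the secretory path, rose from 10116 and 11836 in WT to 21711 and 20665 in KO, by 0.95 ± 0.10 (adjusted p = 0.000481). A mean over its probe sets gave 0.18, not called (adjusted p = 0.376). Selenof, a selenoprotein that binds the glycoprotein folding sensor, rose by 0.87, Dnajc1 by 0.64 and the membrane-bound disulfide isomerase gene Tmx1 by 0.54, but Dnajc1 gave 0.24, not called, as a mean over probe sets. Of 18 other degradation genes, 4 rose (22.2%) and 0 fell (median 0.06). Os9, a lectin that brings glycoproteins to the HRD1 complex, rose by 0.997 ± 0.13 (adjusted p = 0.00136), from 942 and 1061 in WT to 2101 and 1925 in KO. Ubxn4 and Aup1 each rose by 0.47 and Erlec1 by 0.42. With all probe sets averaged, Ubxn4 gave 0.28 and Erlec1 turned negative, at -0.17, neither of them called.

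For N-glycosylation 5 of 24 further genes rose (20.8%, beside 10.5% of all genes) and 0 fell, with a median of 0.20. Dpagt1, the enzyme that starts the lipid-linked sugar, rose from 407 and 446 in WT to 857 and 852 in KO, by 0.98 ± 0.15 (adjusted p = 0.00332). The glucosyltransferase gene Alg6 rose by 1.34, the mannosyltransferase gene Alg9 by 0.72 and the oligosaccharyltransferase subunit gene Magt1 by 0.56. As means over probe sets, Alg6 gave 0.55 and Alg9 gave 0.31, and neither was called (adjusted p = 0.314 and 0.485). In the COPII and COPI lists 3 of 32 rose (9.38%, beside 10.5% of all genes): Arcn1, a COPI coat subunit, by 1.04, Golt1b by 0.53 and Sar1b, the GTPase that starts COPII coats, by 0.39. Averaging the probe sets took Arcn1 to 0.36 and ended its call (adjusted p = 0.0841), and Golt1b, at 0.54, was not called either (0.0633). For the translocon and signal recognition 2 of 19 rose, Sec63 by 0.57 and Srp19 by 0.51, a share of 10.5% that equals that of all genes. Sec63 gave 0.29, not called, when its probe sets were averaged.

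The signalling lists were mixed. The 24 targets of PERK and its factor ATF4 had 7 genes that rose (29.2%) and 5 that fell (20.8%), with a median of -0.11. Over all genes tested these shares were 10.5% and 9.87%. Phgdh, the first enzyme of serine synthesis, fell from 14429 and 12653 in WT to 6109 and 5236 in KO, a log2 fold change of -1.25 ± 0.11 (adjusted p = 0.000229). Vldlr, a lipoprotein receptor gene, rose from 388 and 306 in WT to 1247 and 1332 in KO, by 1.85 ± 0.17 (adjusted p = 0.000229). That probe set is marked as cross-hybridising, and without such probe sets Vldlr rose by 1.05. Cebpb, a transcription factor gene, rose by 0.92, and Mthfd2, a mitochondrial folate enzyme gene, fell by 0.81. Of 14 partners of IRE1 and ATF6, only Rtcb, the gene of the ligase that joins the cut Xbp1 RNA, was called, at -0.33. Its call was lost under 9 of 14 alternatives (adjusted p up to 0.329), among them centring on the median, and without cross-hybridising probe sets the list had 1 gene higher and 0 lower. Among 17 chaperones outside the ER 0 rose in limma (2 were higher at an unadjusted p under 0.05). The mitochondrial Hspe1 (-0.57) and the cytosolic Cct5 (-0.41) and Cct2 (-0.35) fell. The share that fell was 17.6%, beside 9.87% of all genes. Of these 37 called genes outside the 49, 21 lost the call without WT1 (adjusted p up to 0.202), 19 without WT2 (0.261), 15 without KO1 (0.178) and 10 without KO2 (0.0943). The calls of 11 held in every fit that left out 1 array. Without the intensity trend 33 of the 37 were not called (adjusted p of the 37 up to 0.248).

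**Figure D5:**
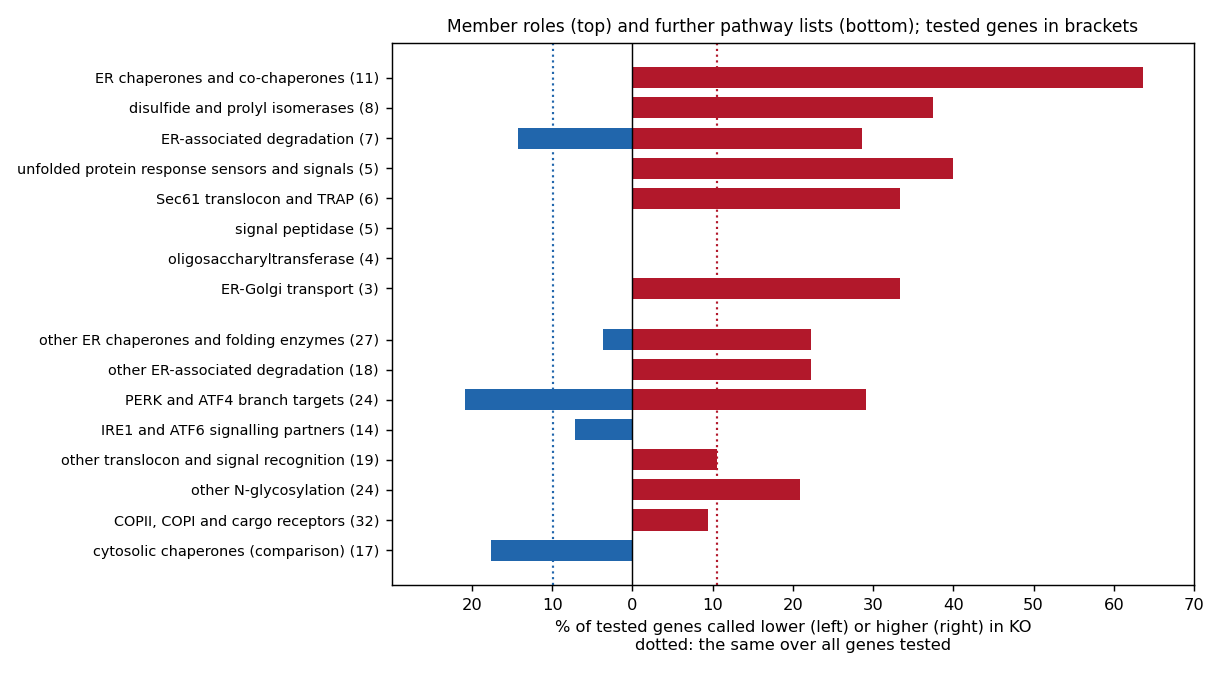
Share of the tested genes of each list called higher (red, right) or lower (blue, left) in KO, with the number tested in brackets. The upper 8 bars are the roles of the 49 genes and the lower 8 the further lists. Dotted lines mark 10.5% and 9.87%, the shares over all genes tested. The ER chaperones and co-chaperones reach 63.6% higher. The list labelled cytosolic chaperones, which also holds the mitochondrial Hspe1, has 0 higher.

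Markers of other cell types were read on the same arrays. Of 15 B and plasma cell markers 10 were tested, of which 6 rose (Jchain, Ighm, Mzb1, Iglv1, Pou2af1 and Sdc1) and 0 fell. As means over probe sets, Ighm went from 3.35 to 0.76 and Sdc1 from 1.67 to 0.77, neither of them called (adjusted p = 0.0809 and 0.241). Sums of signal here are over all markers of a list that have a probe set, those too dim to test included. The sum was 2803 and 5201 on the WT arrays and 39916 and 26655 on the KO arrays, of which Ighm made up 28036 and 20551. The B cell receptor and surface genes Cd79a, Cd79b and Ms4a1 were not called, Pax5 and the plasma cell receptor gene Tnfrsf17 were too dim to test, and no marker was listed at 0. Of the mast cell and basophil markers 10 of 12 rose, with sums of 983 and 1428 in WT and 45482 and 30599 in KO. Kit (0.32) and Tpsb2 (-0.19) were not called. Of 6 eosinophil markers only 2 were tested, Prg2 and Epx, and both rose. The sums were 22.1 and 87.3 in WT and 5447 and 2048 in KO. The eosinophil surface genes Siglecf and Ccr3 were too dim to test, and Ear1 and Ear2 had no probe set that names them alone. Monocyte, macrophage and neutrophil markers rose in 6 of 8 (463 and 680 in WT, 5052 and 3111 in KO), and CD8 T and NK cell markers in 5 of 6 (2717 and 2884 in WT, 12384 and 8857 in KO). T cell markers rose in 4 of 9, with sums of 76266 and 73488 in WT and 102247 and 96107 in KO. Over all genes tested, 10.5% rose.

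All of these sums were higher on KO1 than on KO2, as were the signals of 37 of the 49 ER genes. Without KO1 the median log2 fold change of the 49 ER genes was 0.25, beside -0.05 for all probe sets tested. Without KO2 it was 0.39, beside -0.09. Without WT1 and WT2 it was 0.28 and 0.35, beside -0.09 and -0.08. Bulk RNA does not show whether these markers came from other cells or from the T cells themselves. The part of either in the rise of the ER genes was not tested.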

How the data were processed

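The 4 arrays were single-colour Affymetrix arrays. Each deposited column holds the linear intensity of every probe set on 1 array, and MAS5 is the tool in the submitters' processing notes. Its version and settings are not given in the sources used here. The mean after trimming 2% of probe sets at each end was the same on every array, so differences in total RNA per cell are not visible. Of 45101 probe sets, 34958 name 1 gene in the platform annotation, 932 several and 9211 none.

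After 64 control probe sets and the 40% with the lowest mean were left out, log2(signal + 16) of 27022 probe sets (12547 genes) was fitted with the lmFit and eBayes functions of limma 3.58.1 under R 4.3.3, the prior following an intensity trend. Tests were two-sided with Benjamini-Hochberg adjustment at 0.05, with 2 residual and 6.41 prior degrees of freedom. Rose, fell and called mean past that threshold. Fold changes are on the log2(signal + 16) scale, which understates those of dim genes. With 2 arrays per group the smallest two-sided p of an exact permutation test is 0.333. The number of arrays limits the precision. The median log2 fold change over all tested probe sets was -0.08, uncorrected.

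All 49 genes are accounted for. Signals of each array are given for the largest called changes, the unfolded protein response genes, other called genes and some whose probe sets differ in direction. From each further list at most 4 called genes with the smallest p were named. The members and lists were chosen with earlier results of these data known. Promoters came from RefSeq (GRCm38.p6), matched by symbol. Manf, Kdelr2, Ostc, Derl1, Sec61a1, Sec11c, Atf6, Hyou1, Ssr2 and Spcs3 are not in that table. Protein sequences were not used here. The 14 alternatives changed the pseudocount, filter, normalization, prior, block, probe sets or arrays.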

Additional observations from a re-analysis of the deposited data

How the results depend on the processing

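The median log2 fold change of the 49 genes stayed between 0.25 and 0.39 under all 14 alternatives. The count called higher was 17, and it stayed between 15 and 22 under the alternatives that kept all 4 arrays and the intensity trend. Leaving out 1 array gave 9 to 21 called higher and 1 called lower each time. Of the 18 called genes, 9 kept the call in every such fit. Without the intensity trend 1 of the 49 was called higher and 0 lower, beside 2.69% and 1.69% of all probe sets. The 49 thus did not exceed the share over all probe sets in that fit. The adjusted p of the 18 called genes was then between 0.0398 and 0.218. Averaging all probe sets of a gene gave 15 higher and 2 lower, Sec11c (-0.66) being the added one that was lower. Calr and Ssr3 were added as higher. Averaging ended the calls of Pdia6 (0.25), Derl2 (0.09) and Ern1 (0.32), and turned Ssr4 to -0.079 and Erlec1 to -0.17. Without cross-hybridising probe sets Ssr4 was -0.32. Of the uncalled genes, Hyou1 (-0.10), Pdia3 (-0.23), Pdia4 (-0.10) and Fkbp11 (-0.19) also turned negative when averaged, and Derl1 turned to 0.12 without cross-hybridising probe sets. Over all probe sets 4608 were called, against 1183 without the trend, 3032 without WT1 and 2786 without WT2. With the array number as a replicate block 22 members were called higher and 1 lower, but same-numbered arrays did not deviate together (r = 0.01 over 27022 probe sets). The signals of Atf6 in WT and of Fkbp11 lay between 45.9 and 110, and dim MAS5 signals are known to vary more between arrays.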

Other observations

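The ER stress element was also present in promoter windows of genes outside the 49. Of these, 6 were tested, with a median log2 fold change of -0.35. Pan2, a subunit of a poly(A) nuclease, fell by 0.77 ± 0.18 (SE; adjusted p = 0.0211 in limma). None rose, also at an unadjusted p under 0.05, where the count was 0. Ero1b, the relative of Ero1a with the same oxidase role, gave -0.38 ± 0.19 (adjusted p = 0.228), and Alg12, a mannosyltransferase of N-glycosylation, gave -0.30 ± 0.19 (adjusted p = 0.336). The other 3 were Acacb at -0.32, Spats2l at -0.70 and Adcy3 at 0.17, none of them called.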
